A study of Mus musculus with 20 samples.

Results

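The liver of high-fat-fed mice that ran on a treadmill was compared with the liver of mice on a normal diet that did not run, to see which differences of the kind seen in high-fat liver were also present in running animals. The comparison uses 8 of the 20 libraries of the study, chosen by their labels alone: the 4 non-tumour pieces of exercised high-fat mice and the 4 normal-diet livers. The 4 non-tumour pieces of non-exercised high-fat mice were set beside them. The 8 tumour libraries were not compared, but entered the filter on low counts, the scaling of libraries and the estimate of the spread. All mice were wild-type males of a strain that the labels spell C56BL/6, and all had 50 µL of 0.5% DMBA (7,12-dimethylbenz(a)anthracene, a carcinogen) in acetone put on the back on postnatal day 4 to 5. Exercised and non-exercised high-fat mice received diet D12492 with 60 kcal% fat, 20 kcal% protein and 20 kcal% carbohydrate. Normal-diet mice received diet CE-2 with 12 kcal% fat, 29 kcal% protein and 59 kcal% carbohydrate. The diets were given first to the mothers with their pups and then to the pups after weaning at 4 weeks. High-fat mice were split into the arms at 20 weeks, and the runners trained for 5 weeks from a speed of 10 m/min before 10 weeks at 18 m/min, in sessions of 20 min held 5 days a week. Livers were taken at 35 weeks, for both exercised and non-exercised mice on 1 day and no later than 2 h after the final session. The labels give no separate time of death for the normal-diet mice and hold no exercised normal-diet group, so that diet and running cannot be told apart in this comparison. The titles of the high-fat non-tumour pieces share their mouse numbers with those of tumour pieces, and the normal-diet titles do not say whether those livers held tumours. The labels speak of obese mice over 45 g and say that littermates were shuffled between groups, and mice carry the numbers 1 to 4 within each group.

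Hepatocytes take up fatty acids and lipoproteins, store triglyceride in droplets coated by proteins of the perilipin and CIDE families, and export it on apolipoproteins. Many liver enzymes of drug and steroid metabolism are set by sex through the rhythm of growth hormone, and many others follow the circadian clock. In that clock, CLOCK or NPAS2 pairs with BMAL1 (gene symbol Arntl here) at E-box sequences and drives Per, Cry, Nr1d1, Nr1d2, Dbp, Tef and Ciart, whose products repress the pair or act in secondary loops.

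Total counts ran from 16809124 to 19513821 in the exercised libraries, from 16471378 to 18142796 in the non-exercised high-fat libraries and from 16626648 to 18826889 in the normal-diet libraries. The hepatocyte markers marked every library as liver: Alb, the plasma albumin gene, lay at 50930 to 70694 CPM (counts scaled to library size) in exercised, 37503 to 59819 CPM in non-exercised and 52496 to 63693 CPM in normal-diet libraries. Of 10 listed markers of muscle, kidney, pancreas, lung and gut, 9 were under the filter on low counts, at no more than 0.163 CPM in any of the 12 libraries. The other was Cela1, an elastase gene, at 34.4, 13.6, 13.9 and 13.8 CPM in exercised, 11.9 to 15.1 CPM in non-exercised and 13.3 to 40.4 CPM in normal-diet libraries. The exercised libraries were the most scattered of the groups. On the first principal component of the 12 libraries they lay at -13.2, 40.6, 11.5 and 12.4 for mice 1 to 4, against 18.9 to 41.7 in non-exercised and -47.2 to -42.1 in normal-diet libraries. Exercised mouse 1 therefore lay nearest to the normal diet and exercised mouse 2 at the far end, among the non-exercised high-fat libraries. Results that rest on either of them are given with and without it. Alb, like Cyp4a14 here and Npas2 in the clock, is named outside the rule for named genes, after values were seen. Normal-diet mouse 2 stood apart in the acute phase genes, with a summed level of 40153 CPM against 22805 to 24546 CPM in the other normal-diet libraries, and in Cyp4a14, a fatty acid hydroxylase, with 2135 CPM against 87.9 to 183 CPM.

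**Figure D1:**
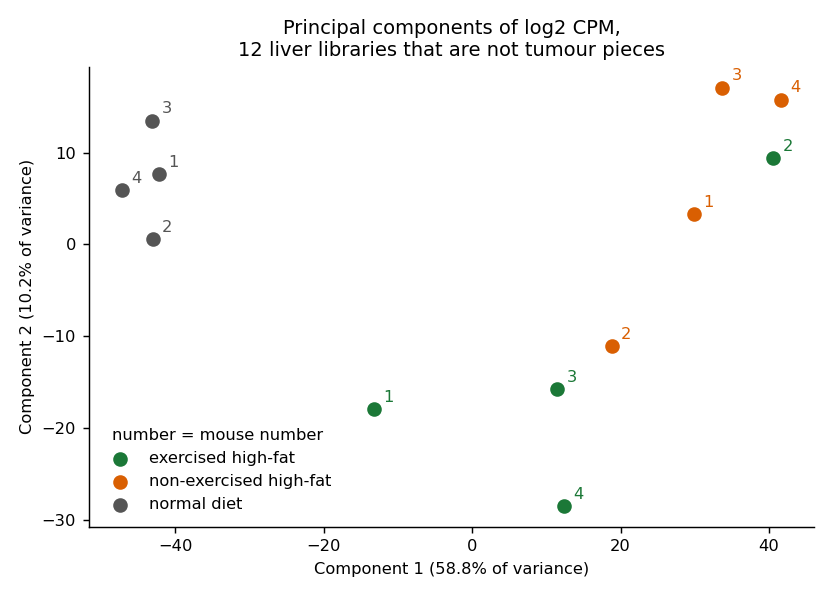
Each point is 1 library, placed on the first 2 principal components of log2 CPM over 2000 genes, with the mouse number beside it. Exercised libraries spread from -13.2 to 40.6 on component 1, non-exercised high-fat libraries from 18.9 to 41.7, and the 4 normal-diet libraries sit together below -42.

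Of 14428 genes tested, 2053 (14.2%) differed between exercised high-fat and normal-diet liver at an adjusted p under 0.05 in edgeR's quasi-likelihood test. Of these, 1088 (7.54%) were higher and 965 (6.69%) lower in exercised mice, and 517 and 186 of them differed by at least 2-fold. The share of higher calls was 53%, with 44.3% in limma-voom and 63.2% with upper-quartile scaling. Without exercised mouse 2 the test called 1157 genes, and without normal-diet mouse 3 it called 1301. In non-exercised high-fat liver the same test against the same 4 normal-diet libraries called 3740 genes (25.9%), 2025 (14%) higher and 1715 (11.9%) lower. Of those 3740, 1699 (45.4%) were also called in exercised liver in the same direction, 919 of the 2025 higher genes (45.4%) and 780 of the 1715 lower genes (45.5%). These 1699 make up 82.8% of the calls in exercised liver. Without exercised mouse 2 the shared count was 999, without normal-diet mouse 3 it was 1098 and without normal-diet mouse 4 it was 1126. Both comparisons use the same normal-diet libraries, so shared calls are partly shared reference. The median SD of log2 CPM between libraries was 0.206 in exercised, 0.18 in non-exercised and 0.18 in normal-diet mice, and its part in the counts was not tested. The 2040 genes not called in exercised liver are not shown to differ between the arms. The direct test between exercised and non-exercised high-fat liver called 2 genes (0.0139%), none of them among those 2040. At an unadjusted p under 0.05 it passed 489 of the 2040 and 1203 of all genes, and DESeq2's Wald test called 107 genes between the arms, limma-voom 0. Without exercised mouse 3, edgeR called 72. Counts of list members below are to be read beside the shares of all genes called. Those were 7.54% higher and 6.69% lower in exercised mice, and 14% and 11.9% in non-exercised mice. At an unadjusted p under 0.05, 4335 of the 14428 genes passed between exercised and normal-diet mice, where DESeq2 called 2512.

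**Figure D2:**
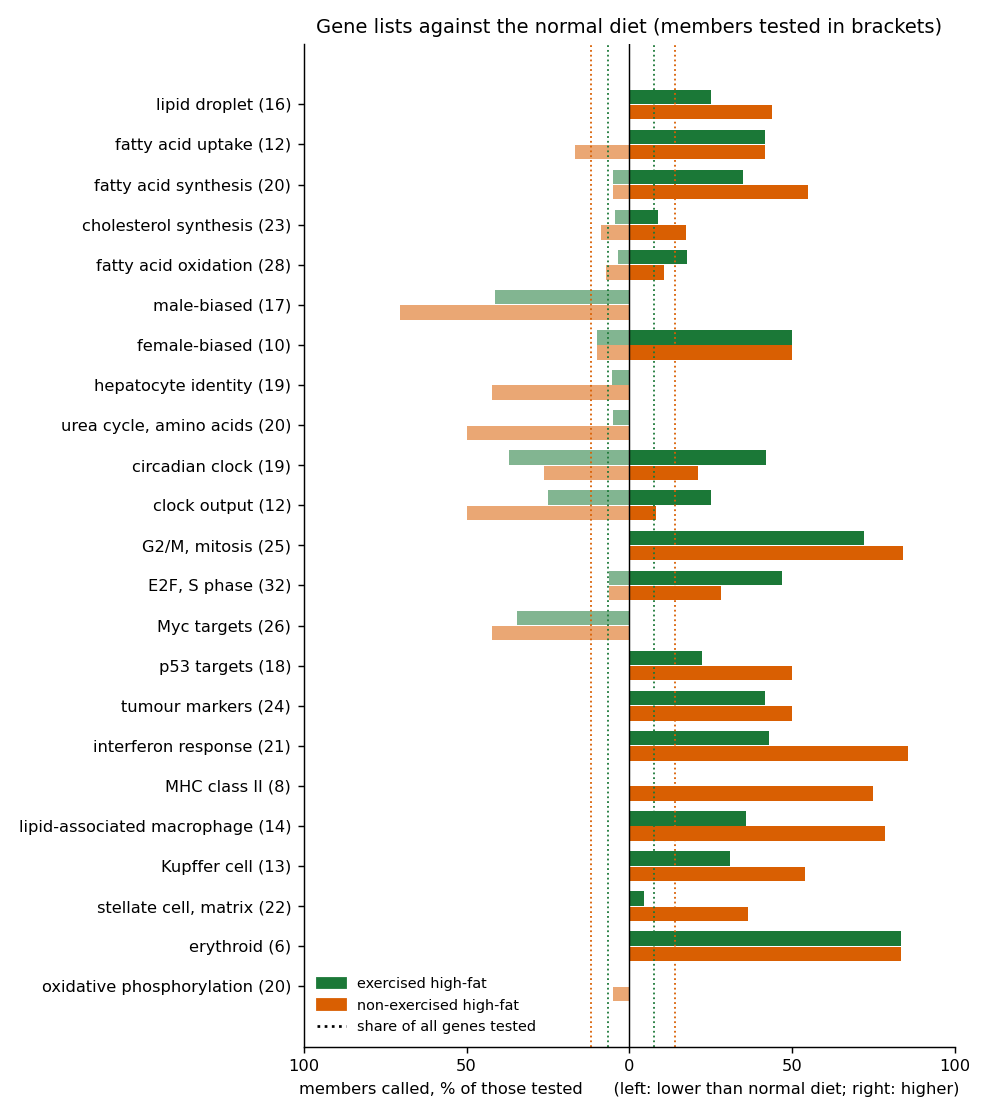
Bars give the share of tested members of each gene list that were called against the normal diet, to the right where higher and to the left where lower, with the exercised high-fat bar above the non-exercised one. Dotted lines mark the share of all genes tested, 7.54% higher and 6.69% lower for exercised and 14% and 11.9% for non-exercised mice; MHC class II and urea cycle members pass almost solely in the non-exercised comparison, and of 19 clock members 8 were higher and 7 lower in the exercised comparison, beside 4 and 5 in the non-exercised one.

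Some lipid storage genes were higher in exercised high-fat liver. Of 16 lipid droplet genes tested, 4 rose and none fell, with a median log2 fold change of 0.33 against 0.01 over all genes, of which 7.54% rose and 6.69% fell. In non-exercised mice 7 rose. DESeq2 and the fit of the 12 non-tumour libraries called 6. Cidea, which lets droplets grow by fusing them and is normally scarce in lean liver, was at 62.2, 41.9, 49.9 and 36.4 CPM in exercised mice 1 to 4, against 0.292, 0, 0.287 and 1.46 CPM in normal-diet mice. Every exercised library was far above every normal-diet library, as was so in direction for 11.6% of all genes, with 11.5% below. The log2 fold change was 6.58 ± 0.93 (SE, adjusted p = 0.000307), and 7.90 without normal-diet mouse 4, whose level was the highest of its group. Cidec, a droplet protein of the same family, was at 65.6, 127, 73.3 and 56.9 CPM in exercised mice, against 10.2, 11.4, 14.5 and 11.8 CPM in normal-diet mice. It rose by 2.75 ± 0.29 on the log2 scale (adjusted p = 3.85e-05), beside 3.09 ± 0.30 in non-exercised mice. Mogat1, which makes diacylglycerol for triglyceride synthesis, rose by 2.71 ± 0.63 (adjusted p = 0.00982). Plin1, the droplet coat of fat cells, was under the filter, and the fat cell hormone genes Adipoq, Lep and Retn had at most 0.12 CPM in any of the 12 libraries. They are the untested members of a list of 8 fat cell markers. Its 4 tested members had 1 higher and 0 lower in exercised mice and 2 higher in non-exercised mice, against 7.54% and 14% of all genes higher. The summed level of the list was 3139 to 3824 CPM in exercised and 1936 to 6805 CPM in normal-diet mice.

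Of 12 fatty acid uptake genes, 5 were higher and none lower in exercised mice, beside 5 higher and 2 lower in non-exercised mice. In exercised mice 2 were called lower by DESeq2 and in the fit of the 12 non-tumour libraries, and 1 at a minimum of 1 CPM, in the fit of the 2 groups alone and without exercised mouse 2. In non-exercised mice 1 was lower without normal-diet mouse 1 or non-exercised mouse 3 or 4. Cd36, a membrane carrier of long-chain fatty acids, was at 206, 441, 273 and 300 CPM in exercised mice, against 110, 85.9, 90.7 and 107 CPM in normal-diet mice. The groups did not overlap, and the log2 fold change was 1.63 ± 0.26 (edgeR adjusted p = 0.000626). Vldlr, the receptor for very-low-density lipoprotein, was at 6.26, 20.4, 14.2 and 16.7 CPM in exercised mice, against 2.16, 1.86, 2.01 and 1.21 CPM in normal-diet mice (2.99 ± 0.49, adjusted p = 0.000919). Exercised mouse 1 was again the lowest of its group. Apoa4, an apolipoprotein of triglyceride-rich particles, was at 938, 6575, 2132 and 1627 CPM in exercised mice, against 159, 138, 160 and 111 CPM in normal-diet mice. Its log2 fold change was 4.31 ± 0.51 (adjusted p = 7.23e-05), and 3.46 without exercised mouse 2.

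Fatty acid synthesis genes rose for 7 of 20 members and fell for 1, with a median of 0.70 on the log2 scale, beside 11 and 1 of 20 and a median of 0.84 in non-exercised mice. Fads2, the desaturase that begins the making of polyunsaturated fatty acids, was at 717, 1118, 665 and 982 CPM in exercised mice and 329, 312, 412 and 348 CPM in normal-diet mice (log2 fold change 1.31 ± 0.20, adjusted p = 0.000376). Elovl5, an elongase of the same fatty acids, was at 352, 1088, 719 and 846 CPM in exercised mice, against 385, 388, 391 and 350 CPM in normal-diet mice. Exercised mouse 1 lay within the normal-diet range for Elovl5 while the other 3 exercised libraries lay above it (0.99 ± 0.22, adjusted p = 0.00772). The fit of the 2 groups alone called 4 synthesis genes higher, and the lower call was lost without exercised mouse 2 or normal-diet mouse 1. Cholesterol synthesis genes were mostly not called, 2 of 23 higher (0 without exercised mouse 2 or normal-diet mouse 1 or 2, and 4 without exercised mouse 1) and 1 lower. The lower one was Tm7sf2, a sterol reductase, which fell by 0.67 ± 0.15 on the log2 scale (adjusted p = 0.00787).

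Fatty acid oxidation genes rose for 5 of 28 members and fell for 1, against 7.54% and 6.69% of all genes. The higher count was 3 without exercised mouse 2 or 4 or normal-diet mouse 3. The lower call was lost without any 1 of the exercised mice or normal-diet mouse 1 or 2, with RLE or upper-quartile scaling, in limma-voom, with no filter on low counts, in the fits of fewer libraries and with the block. Bdh1, which interconverts the ketone bodies in mitochondria, was at 365, 426, 362 and 331 CPM in exercised mice, against 195, 196, 194 and 205 CPM in normal-diet mice (log2 fold change 0.91 ± 0.12, adjusted p = 0.000128). Ppargc1a, a coactivator of mitochondrial and gluconeogenic genes, was at 15.3, 20.0, 12.4 and 17.1 CPM in exercised mice and at 9.39, 5.41, 7.05 and 9.03 CPM in normal-diet mice. Every exercised library lay above every normal-diet library for Ppargc1a (1.07 ± 0.18, adjusted p = 0.00121). In non-exercised mice its level was 7.07, 10.2, 7.94 and 10.6 CPM, which did not pass against the normal diet (0.22 ± 0.19, adjusted p = 0.401), and the direct difference between the arms, 0.85 ± 0.18, did not pass either (adjusted p = 0.141). Of the 20 oxidative phosphorylation genes edgeR called none (7 at an unadjusted p under 0.05, 3 by DESeq2), and the fit of the 12 non-tumour libraries called 4 lower. That unadjusted count stands beside 4335 of all 14428 genes.

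Genes of insulin and glucose handling moved both ways, 3 of 18 higher and 3 lower, with 6 higher in the fit of the 12 non-tumour libraries. Irs2, an adaptor of the insulin receptor, was at 26.6, 21.4, 9.88 and 11.6 CPM in exercised mice, against 61.6, 89.3, 73.7 and 67.9 CPM in normal-diet mice, a fall of 2.08 ± 0.37 on the log2 scale (edgeR adjusted p = 0.00171). All exercised libraries were below all normal-diet libraries. Slc2a2, the hepatocyte glucose transporter, was at 470, 443, 363 and 365 CPM in exercised mice and at 258, 125, 235 and 217 CPM in normal-diet mice (0.97 ± 0.23, adjusted p = 0.0105).

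**Figure D3:**
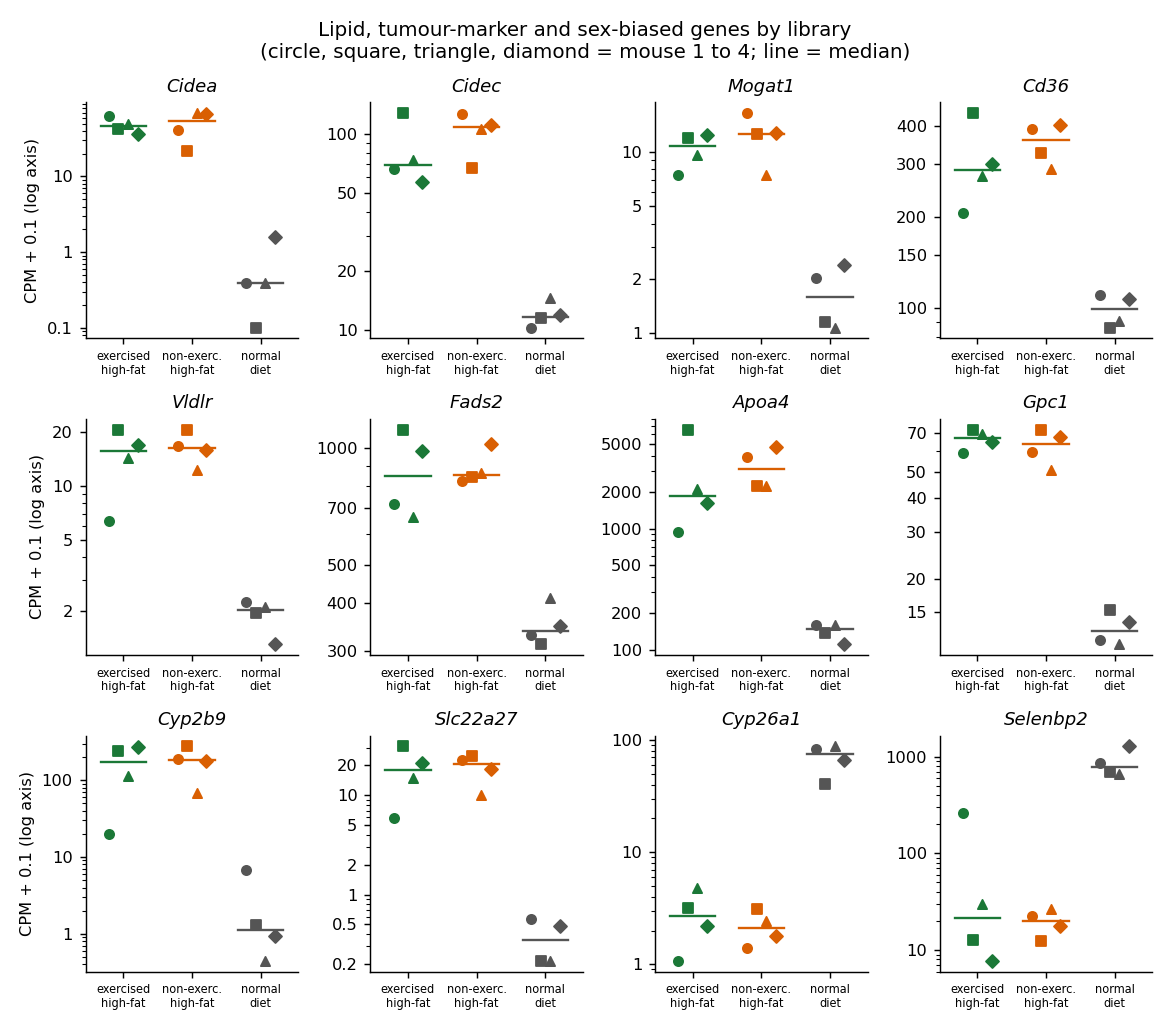
Each panel gives 1 gene's CPM plus 0.1 on a log axis in the 4 libraries of the exercised high-fat, non-exercised high-fat and normal-diet groups, with a marker shape for each mouse number and a line at the median. The high-fat groups lie above the normal diet for the first 10 genes and below it for Cyp26a1 and Selenbp2, and exercised mouse 1 (circle) is the nearest to the normal diet for Vldlr, Apoa4, Cyp2b9, Slc22a27 and Selenbp2.

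The lowest fold changes included genes of retinoid and solute handling. Cyp26a1, which breaks down retinoic acid, was at 0.972, 3.05, 4.64 and 2.11 CPM in exercised mice, against 82.8, 40.5, 87.9 and 66.0 CPM in normal-diet mice. It fell by 4.66 ± 0.43 on the log2 scale (edgeR adjusted p = 1.48e-05), and by 5.05 ± 0.45 in non-exercised mice. Slc13a2, a carrier of citrate and other dicarboxylates, fell by 3.90 ± 0.44 (adjusted p = 4.21e-05). Srgap3, a GTPase-activating protein, was at 0.547, 0.689, 0.605 and 0.379 CPM in exercised mice and at 3.38, 9.01, 9 and 7.38 CPM in normal-diet mice (-3.67 ± 0.39, adjusted p = 3.45e-05). None of the 3 had overlapping groups.

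Male-biased liver genes were lower and female-biased ones higher in exercised high-fat males. Of 17 male-biased genes tested, 7 fell and none rose, with a median of -1.83 on the log2 scale; of 10 female-biased genes tested, 5 rose and 1 fell, with a median of 1.57. Selenbp2, a selenium-binding protein gene that is high in male liver, was at 258, 12.5, 30.0 and 7.64 CPM in exercised mice, against 866, 684, 655 and 1276 CPM in normal-diet mice. All exercised libraries were lower, mouse 1 least so. The fall was 3.50 ± 0.83 on the log2 scale (edgeR adjusted p = 0.0111), and 5.71 without exercised mouse 1; the fit of the 2 groups alone did not call it (adjusted p = 0.0865, with 2.2e-05 to 0.0865 over all alternatives). Nat8, an acetyltransferase that completes mercapturic acids, fell by 2.35 ± 0.58 (adjusted p = 0.0132). The male-biased sum was 13474, 3158, 8082 and 3895 CPM in exercised mice 1 to 4, against 16912 to 20863 CPM in normal-diet mice. The count of male-biased genes called rested on which mice were included, with 10 lower genes without exercised mouse 1, 3 without exercised mouse 2 or mouse 4 and in the fit of the 2 groups alone, and 4 without normal-diet mouse 1 and with no filter on low counts.

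The female-biased sum was 360, 1464, 695 and 1026 CPM in exercised mice 1 to 4, against 202, 2063, 128 and 104 CPM in normal-diet mice 1 to 4. The groups overlapped in this sum, since normal-diet mouse 2 lay above every exercised mouse, with 2135 CPM of Cyp4a14 (on the TMM-scaled library size). Limma-voom called 3 female-biased genes higher. Among the members, Cyp2b9, a cytochrome P450 that male liver normally holds at a low level, was at 19.9, 236, 112 and 270 CPM in exercised mice, against 6.71, 1.22, 0.344 and 0.827 CPM in normal-diet mice. Its log2 fold change was 6.12 ± 0.86 (edgeR adjusted p = 0.00028), and 7.63 without normal-diet mouse 1, the highest of its group. Abcd2, a peroxisomal carrier of very-long-chain fatty acids, was at 18.3, 70.8, 35.6 and 47.3 CPM in exercised mice and at 3.79, 8.78, 7.22 and 2.99 CPM in normal-diet mice (2.91 ± 0.39, adjusted p = 0.000217). Cyp17a1, the steroid hydroxylase and lyase, rose by 4.03 ± 0.64 (adjusted p = 0.000772), and by 3.27 without exercised mouse 2. Slc22a27, an organic anion transporter, was at 5.77, 30.9, 14.6 and 21.0 CPM in exercised mice, against 0.467, 0.116, 0.115 and 0.382 CPM in normal-diet mice (6.05 ± 0.62, adjusted p = 3.45e-05). The Cyp2b, Cyp3a, Ces2 and Selenbp genes belong to families of near-identical copies, so that reads that match several copies make their levels uncertain.

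Drug-metabolising genes were lower for 3 of 21 members and higher for 1, against 7 lower and 1 higher in non-exercised mice. Of all genes, 6.69% were lower and 7.54% higher in exercised mice, beside 11.9% and 14% in non-exercised mice. The higher call in exercised mice was lost in all 8 fits that left out 1 mouse, in limma-voom, with no filter on low counts and with the mouse number as a block. The fit of the 12 non-tumour libraries and the block called 5 lower. The higher call in non-exercised mice was lost without normal-diet mouse 2 or non-exercised mouse 1. Cyp3a11, the main drug-oxidising P450 of mouse liver, was at 945, 2301, 1370 and 1038 CPM in exercised mice, against 8379, 4271, 5621 and 5312 CPM in normal-diet mice (-2.06 ± 0.39, edgeR adjusted p = 0.00246). Ces2a, a carboxylesterase, was at 116, 65.7, 82.5 and 84.9 CPM in exercised mice and at 481, 328, 376 and 372 CPM in normal-diet mice (-2.16 ± 0.27, adjusted p = 0.000105). The groups did not overlap for either gene.

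Most members of the circadian clock list were called. Of 19 genes, 8 rose and 7 fell in exercised mice against the normal diet, beside 4 and 5 in non-exercised mice; the lowest and highest counts over all leave-one-out fits of the exercised comparison were 8 and 10 for higher and 7 and 7 for lower. The higher ones were targets of the CLOCK and BMAL1 pair, and the lower ones were mostly the pair itself and Cry1. The promoters of 3 of these genes show the sequence words through which clock factors are known to bind. They are given as the 250 bases before the RefSeq gene start on the GRCm38.p6 build, whose coordinates differ from those of the count files (GRCm39), and read along the gene's strand, here the minus strand for all 3. Capitals mark CACGTG (the E-box) or TTATGTAA (a D-box, bound by DBP and TEF), both searched on either strand. The windows are chr3:95882229-95882478 for Ciart, chr4:151044666-151044915 for Per3 and chr10:85185055-85185304 for Cry1.
Ciart: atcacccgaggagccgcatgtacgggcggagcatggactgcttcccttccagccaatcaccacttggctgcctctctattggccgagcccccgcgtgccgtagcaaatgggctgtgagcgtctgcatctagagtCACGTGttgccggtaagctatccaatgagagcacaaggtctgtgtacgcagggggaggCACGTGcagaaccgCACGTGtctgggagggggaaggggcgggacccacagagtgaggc
Per3: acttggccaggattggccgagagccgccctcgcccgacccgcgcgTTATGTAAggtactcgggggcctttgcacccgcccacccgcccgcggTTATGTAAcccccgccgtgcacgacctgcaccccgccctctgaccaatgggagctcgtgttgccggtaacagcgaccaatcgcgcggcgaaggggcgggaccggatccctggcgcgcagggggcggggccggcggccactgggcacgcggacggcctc
Cry1: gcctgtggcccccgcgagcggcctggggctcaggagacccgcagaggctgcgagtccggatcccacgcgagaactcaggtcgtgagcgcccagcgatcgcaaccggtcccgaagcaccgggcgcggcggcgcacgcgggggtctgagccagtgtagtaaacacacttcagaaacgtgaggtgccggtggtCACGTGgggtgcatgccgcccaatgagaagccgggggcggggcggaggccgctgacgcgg
The Ciart window held 3 E-boxes, starting at positions -116, -58 and -44 from the gene start, and the Cry1 window held 1 at -60. The Per3 window held D-boxes at -205 and -158 and no E-box. An E-box was found in 6.02% of 32851 promoter windows and TTATGTAA in 0.819%. Of the 19 clock genes, 16 had a window, and 5 of those held an E-box. Ciart and Per3 were higher and Cry1 was lower in exercised mice.

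Dbp, a transcription factor that acts on D-boxes, was at 106, 44.2, 20.0 and 51.7 CPM in exercised mice, 11.2, 11.9, 7.99 and 11.5 CPM in non-exercised high-fat mice and 1.46, 1.1, 1.03 and 1.21 CPM in normal-diet mice. The 3 groups did not overlap. The log2 fold change against the normal diet was 5.52 ± 0.63 in exercised mice (edgeR adjusted p = 6.2e-05) and 3.14 ± 0.62 in non-exercised mice (adjusted p = 0.00206), and the direct difference between the arms, 2.38 ± 0.50, did not pass (adjusted p = 0.141). Ciart, a repressor of the CLOCK and BMAL1 pair, was at 14.5, 10.2, 1.16 and 5.63 CPM in exercised mice, 0.112, 0.749, 0.248 and 0.871 CPM in non-exercised mice and 0.233, 0.174, 0.172 and 0.318 CPM in normal-diet mice. It rose by 5.10 ± 0.84 in exercised mice (adjusted p = 0.000955) but did not pass in non-exercised mice (1.14 ± 0.96, adjusted p = 0.398), and the direct difference did not pass (adjusted p = 0.123). Per3, a period gene, was at 20.1, 12.3, 8.77 and 16.6 CPM in exercised mice, against 1.92, 1.45, 2.01 and 1.72 CPM in normal-diet mice (3.02 ± 0.34, adjusted p = 5.31e-05). Exercised mouse 3 had the lowest level of its group for each of the 3 genes.

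Per2, another period gene, was at 25.5, 18.6, 17.9 and 22.8 CPM in exercised mice and at 9.04, 9.83, 8.66 and 7.06 CPM in normal-diet mice (log2 fold change 1.29 ± 0.22, edgeR adjusted p = 0.00121). Per1 did not pass, at 0.73 ± 0.27 (adjusted p = 0.0783), except without exercised mouse 3 (0.89, adjusted p = 0.0481), in DESeq2 (0.74, 0.0443) and in the fit of the 2 groups alone (0.75, 0.0451), with 0.0443 to 0.199 over all alternatives. Nr1d1 and Nr1d2 encode REV-ERB receptors that repress Arntl. Nr1d1 was at 71.0, 101, 60.2 and 65.1 CPM in exercised mice, against 19.9, 10.5, 19.7 and 27.1 CPM in normal-diet mice (1.95 ± 0.26, adjusted p = 0.000181), and Nr1d2 rose by 1.84 ± 0.20 (adjusted p = 4.21e-05). Tef, a D-box factor like Dbp, was at 153, 108, 80.7 and 117 CPM in exercised mice, 41.7, 60.4, 43.9 and 52.0 CPM in non-exercised mice and 42.4, 34.3, 40.2 and 33.3 CPM in normal-diet mice. It rose by 1.61 ± 0.24 in exercised mice (adjusted p = 0.000338), while the non-exercised libraries overlapped the normal diet (0.40 ± 0.23, adjusted p = 0.216). Cry2, a cryptochrome repressor, rose slightly, by 0.42 ± 0.09 (adjusted p = 0.00515).

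On the other side, Arntl was at 3.46, 12.2, 19.4 and 13.5 CPM in exercised mice, 24.5, 25.1, 26.1 and 24.6 CPM in non-exercised mice and 40.6, 40.2, 40.8 and 45.0 CPM in normal-diet mice. The 3 groups did not overlap, and exercised mouse 1 was the lowest. Arntl fell by 1.77 ± 0.39 on the log2 scale in exercised mice (edgeR adjusted p = 0.00716) and did not pass in non-exercised mice (-0.73 ± 0.37, adjusted p = 0.158). Npas2, the alternative partner of BMAL1, named after its values were seen, was at 0.668, 2.22, 4.08 and 2.98 CPM in exercised mice, against 14.5, 13.1, 13.2 and 19.6 CPM in normal-diet mice (-2.58 ± 0.44, adjusted p = 0.00137). Cry1, the cryptochrome that peaks late in the cycle, was at 7.47, 7.68, 17.8 and 14.1 CPM in exercised mice, against 40.4, 34.0, 39.1 and 32.5 CPM in normal-diet mice (-1.63 ± 0.35, adjusted p = 0.00595). Over the 19 clock genes, 13 differed between exercised and non-exercised mice at an unadjusted p under 0.05, none after adjustment in edgeR and 7 in DESeq2. The time of death of the normal-diet mice was not given apart from that of the other mice, and its part in these differences was not tested. Wee1, a kinase that holds back mitosis and is a known clock output, rose by 1.36 ± 0.24 (adjusted p = 0.00126).

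**Figure D4:**
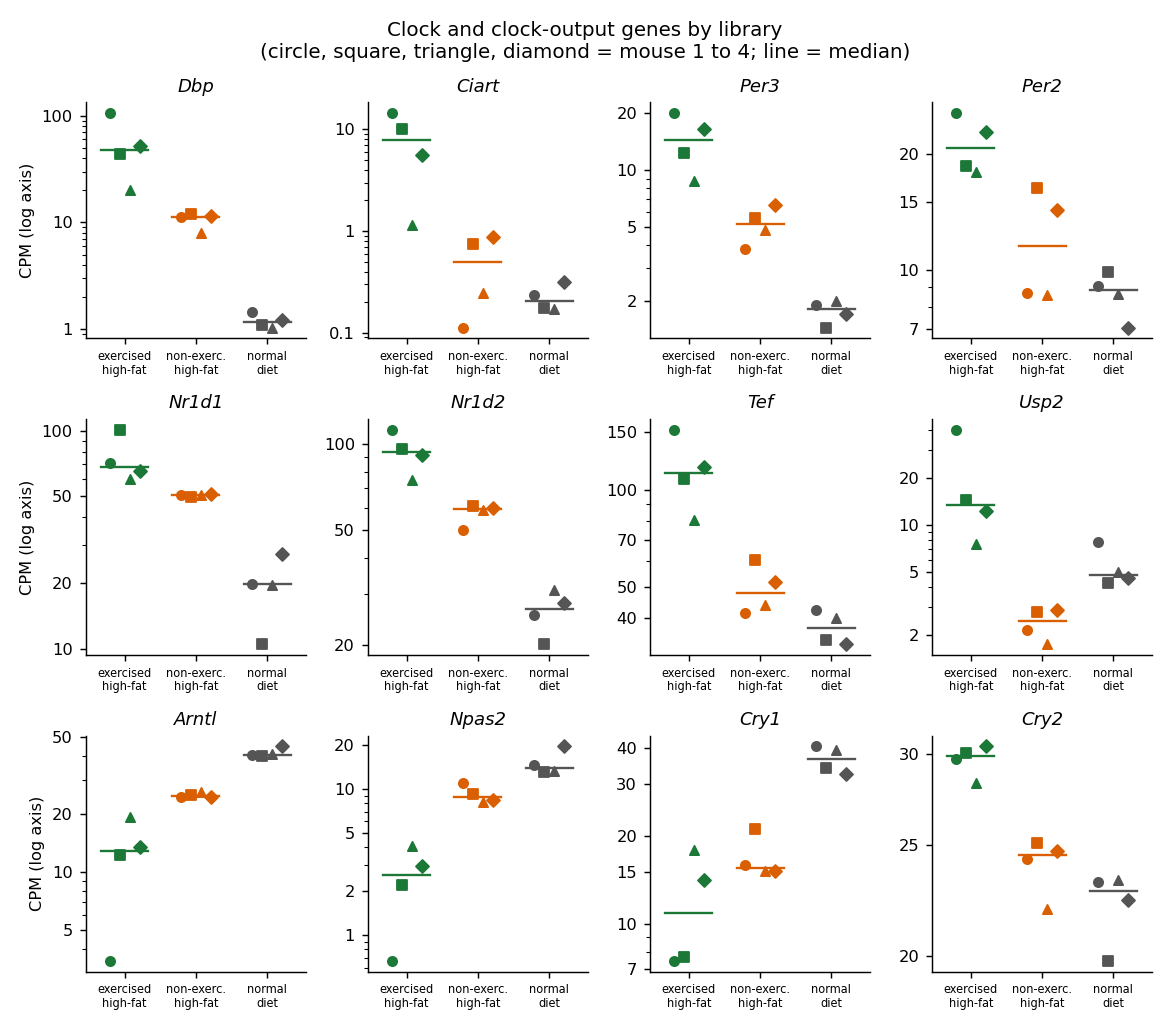
Each panel gives 1 gene's CPM on a log axis in the 4 libraries of the exercised high-fat, non-exercised high-fat and normal-diet groups, with a marker shape for each mouse number and a line at the median. For Dbp, Per3, Nr1d1, Nr1d2, Arntl and Npas2 the non-exercised group lies between the exercised and the normal-diet groups, and Usp2 is lowest in the non-exercised group.

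Usp2 and Mbd1 were the genes called directly between the high-fat arms. Usp2 (ENSMUSG00000032010.16, chr9:43978318-44006924, plus strand, GRCm39) encodes a deubiquitinating enzyme whose expression is driven by the clock in mouse liver. It was at 40.3, 14.4, 7.61 and 12.2 CPM in exercised mice, 2.13, 2.78, 1.74 and 2.86 CPM in non-exercised mice and 7.76, 4.25, 5.04 and 4.58 CPM in normal-diet mice. Exercised mouse 1 was far above its group, and exercised mouse 3 lay within the normal-diet range. Against the normal diet Usp2 rose by 1.78 ± 0.37 on the log2 scale in exercised mice (edgeR adjusted p = 0.00436; 1.07 without exercised mouse 1) and fell by 1.18 ± 0.38 in non-exercised mice (adjusted p = 0.0303). It was the gene called in opposite directions in the 2 comparisons. Between the arms it differed by 2.96 ± 0.39 (adjusted p = 0.00654), by 2.27 without exercised mouse 1, and did not pass without non-exercised mouse 1 (adjusted p = 0.0685) or mouse 3 (0.0712), in the fit of the 12 non-tumour libraries (0.122), in that of the 2 arms alone (0.244) or in limma-voom (0.193), with a range of 1.32e-10 to 0.244 over all alternatives. The fall against the normal diet in non-exercised mice was not called without normal-diet mouse 1 (adjusted p = 0.0978), non-exercised mouse 1 (0.0702) or mouse 3 (0.0872), with 0.00407 to 0.144 over all alternatives. The call in exercised mice was lost in the fit of those 2 groups alone (adjusted p = 0.0573, with 8.5e-05 to 0.0573 over all alternatives).

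Mbd1 (ENSMUSG00000024561.12, chr18:74400676-74415803, plus strand, GRCm39), which binds methylated CpG sites, was at 141, 87.5, 91.2 and 145 CPM in exercised mice, 40.2, 55.9, 50.2 and 45.8 CPM in non-exercised mice and 64.6, 49.8, 83.1 and 77.7 CPM in normal-diet mice. All exercised libraries were above all others. The difference between the arms was 1.27 ± 0.20 on the log2 scale (edgeR adjusted p = 0.0395), and that between exercised and normal-diet mice was 0.75 ± 0.20 (adjusted p = 0.0179). The call between the arms was lost without exercised mouse 1 (1.17, adjusted p = 0.264) or mouse 4 (1.16, 0.132), and without non-exercised mouse 1 (1.20, 0.363), mouse 2 (1.36, 0.093), mouse 3 (1.3, 0.207) or mouse 4 (1.25, 0.305). Its adjusted p between the arms ran from 5.88e-06 to 0.363 over all alternatives. The call against the normal diet was lost without exercised mouse 1 (0.64, adjusted p = 0.0509) or mouse 4 (0.63, 0.0672), or normal-diet mouse 1 (0.72, 0.0537) or mouse 2 (0.62, 0.0616), and its adjusted p ran from 0.00427 to 0.0672 over all alternatives.

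Some genes that were lower in non-exercised high-fat liver lay near the normal diet in exercised liver. Por, the electron donor of the microsomal cytochromes P450, was at 359, 280, 124 and 270 CPM in exercised mice, 101, 115, 91.9 and 84.4 CPM in non-exercised mice and 280, 360, 231 and 235 CPM in normal-diet mice. Its log2 difference from the normal diet was -0.10 ± 0.26 in exercised mice (edgeR adjusted p = 0.84) and -1.5 ± 0.27 in non-exercised mice (adjusted p = 0.000964). Pim3, a serine/threonine kinase, was at 159, 97.8, 51.4 and 98.8 CPM in exercised mice, 28.2, 41.1, 39.3 and 45.9 CPM in non-exercised mice and 134, 94.4, 113 and 113 CPM in normal-diet mice. Il1r1, the receptor for interleukin-1, was at 110, 61.1, 50.3 and 54.4 CPM in exercised mice and 30.2, 29.7, 33.4 and 26.8 CPM in non-exercised mice, against 74.3, 65.4, 32.6 and 63.0 CPM in normal-diet mice. For each of the 3 genes every exercised library was above every non-exercised one, as for 2.54% of all genes tested. The direct differences, 1.39 ± 0.27 for Por, 1.40 ± 0.29 for Pim3 and 1.20 ± 0.24 for Il1r1, did not pass after adjustment over all genes (adjusted p = 0.123, 0.141 and 0.137). These genes were picked by a small p between the arms, so the lack of overlap between the arms follows in part from that choice. It and the sizes are a description only.

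Genes of mitosis were higher in exercised high-fat liver at low levels. Of 25 genes of the G2 and M phases, 18 rose and none fell, with a median of 2.19 on the log2 scale, beside 21 and 2.45 in non-exercised mice. The summed level of the list was 31.1, 99.6, 39.2 and 34.9 CPM in exercised mice 1 to 4, against 15.9 to 18.7 CPM in normal-diet mice, so that exercised mouse 2 carried a large share. Without exercised mouse 2, 8 of the 25 rose, without normal-diet mouse 3, 12 rose, limma-voom called 3, 11 rose with no filter on low counts, and the fit of the 2 groups alone called 8. Mki67, the marker of cycling cells, was at 3.28, 13.9, 4.34 and 3.57 CPM in exercised mice, against 1.05, 1.1, 1.03 and 0.954 CPM in normal-diet mice (2.60 ± 0.56, edgeR adjusted p = 0.00634; 1.85 without exercised mouse 2). Its adjusted p ran from 1.11e-06 to 0.0778 over the alternatives, and limma-voom, at 0.0778, did not call it. Ube2c, which feeds ubiquitin to the anaphase-promoting complex, was at 1.15, 2.51, 0.958 and 1.14 CPM in exercised mice, against 0.175, 0.291, 0.172 and 0.254 CPM in normal-diet mice (2.67 ± 0.42, adjusted p = 0.00059). Aurka, a kinase of the mitotic spindle, rose by 2.07 ± 0.41 (adjusted p = 0.00312). Its promoter is shown because nearly all promoters of the list share its CCAAT words, the site of the factor NF-Y. It is the minus-strand window chr2:172370571-172370820 of RefSeq on GRCm38.p6, with CCAAT in capitals.
Aurka: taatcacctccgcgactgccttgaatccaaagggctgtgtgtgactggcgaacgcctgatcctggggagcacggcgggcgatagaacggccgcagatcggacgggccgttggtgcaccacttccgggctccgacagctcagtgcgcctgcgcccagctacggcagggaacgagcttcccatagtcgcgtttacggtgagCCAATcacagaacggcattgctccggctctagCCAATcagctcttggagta
The words start at -51 and -19. Of the 25 genes, 21 had a window and 19 of these held CCAAT on either strand, a word found in 33.8% of all windows.

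Genes of the S phase that E2F factors control rose for 15 of 32 members and fell for 2, beside 9 and 2 in non-exercised mice. The count of higher genes was 4 without exercised mouse 2 and 7 without normal-diet mouse 2, 7 in limma-voom and 6 in the fit of the 2 groups alone. Tk1, thymidine kinase, was one of the lower genes, at 13, 6.4, 8.57 and 6.82 CPM in exercised mice and 23.8, 12.2, 24.8 and 20.9 CPM in normal-diet mice (-1.23 ± 0.22, edgeR adjusted p = 0.0017). E2f2, an activating E2F, rose by 1.71 ± 0.32 (adjusted p = 0.00241). The series title names E2F1 and c-Myc as proteins, and here their transcripts were read. E2f1 was at 5.77, 6.35, 6.60 and 6.50 CPM in exercised mice, 5.22, 5.03, 5.41 and 6.49 CPM in non-exercised mice and 4.72, 3.37, 5.33 and 4.20 CPM in normal-diet mice. It rose by 0.52 ± 0.14 (adjusted p = 0.0244), a call lost without exercised mouse 2, 3 or 4 or normal-diet mouse 2 or 4 (0.40 to 0.52, adjusted p = 0.0535 to 0.0736) and with no filter on low counts (0.0658, with 0.0081 to 0.0736 over all alternatives), and the arms did not differ beyond their spread (0.19 ± 0.14, adjusted p = 0.786).

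Myc was at 15.2, 8.22, 5.39 and 7.09 CPM in exercised mice, 2.97, 2.03, 7.40 and 7.21 CPM in non-exercised mice and 15.5, 54.6, 21.8 and 29.0 CPM in normal-diet mice. The exercised libraries were all below the normal-diet ones, mouse 1 by little. The fall was 1.76 ± 0.45 on the log2 scale (edgeR adjusted p = 0.0154), and without normal-diet mouse 2 the value was -1.3 (adjusted p = 0.0597, with 0.00119 to 0.0597 over all alternatives). Of 26 known Myc targets, 9 fell and none rose, beside 11 and none in non-exercised mice, and 5 fell in both. The count of lower targets in exercised mice was 5 without normal-diet mouse 1 or mouse 2. It was 6 without exercised mouse 2, 3 or 4, and 12 without exercised mouse 1. Without normal-diet mouse 2, 1 target rose. Those that fell were mostly genes of ribosome making, such as Ppan (-0.68 ± 0.12, adjusted p = 0.00195) and Nolc1 (-0.74 ± 0.14, adjusted p = 0.00213). The summed level of the list ran from 2370 to 2605 CPM in exercised mice and from 2073 to 2756 CPM in normal-diet mice, so that the sum, weighted to abundant genes, did not go with the median log2 fold change of -0.28. Targets of p53 rose for 4 of 18 members (8 in the fit of the 12 non-tumour libraries, 2 in limma-voom), against 7.54% of all genes. Among the 4 were Ccng1, a cyclin (0.87 ± 0.18, adjusted p = 0.00515), and Aen, a nuclease (0.89 ± 0.17, adjusted p = 0.00246).

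Tumour-marker genes were higher in exercised non-tumour pieces for 10 of 24 members, with none lower, beside 12 in non-exercised mice, and limma-voom called 4. Gpc1, a heparan sulfate proteoglycan of the cell surface, was at 58.8, 72.1, 69.6 and 64.7 CPM in exercised mice and 59.6, 71.7, 51.1 and 67.7 CPM in non-exercised mice, against 11.7, 15.2, 11.3 and 13.7 CPM in normal-diet mice. The log2 fold change was 2.35 ± 0.14 (edgeR adjusted p = 2.08e-08), with little spread in any group. Anxa2, a membrane-binding annexin, was at 49.5, 158, 79.6 and 65.1 CPM in exercised mice and 19.9, 9.60, 19.5 and 16.9 CPM in normal-diet mice (2.42 ± 0.32, adjusted p = 0.000181). H19, an imprinted RNA that adult liver normally keeps silent, was at 0.668, 64.1, 0.353 and 0.812 CPM in exercised mice, against 0.292, 0.233, 0.229 and 0.254 CPM in normal-diet mice. Its call (6.01 ± 1.81, adjusted p = 0.0354) rested on exercised mouse 2, without which the value was 1.24 (adjusted p = 0.725). It was also lost without any of the normal-diet mice (5.96 to 6.08, adjusted p = 0.0798 to 0.0835), and its adjusted p ran from 4.8e-05 to 0.725 over the 16 alternatives that tested it. In the fit of the 2 groups alone H19 was under the filter on low counts, so it passed the filter of the main fit only through other libraries. The summed level of the list was 1094 CPM in that library and 378 to 560 CPM in the other exercised ones, against 154 to 205 CPM in normal-diet mice. Whether that piece held tumour cells was not tested.

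Interferon-response genes rose for 9 of 21 members in exercised mice and for 18 in non-exercised mice, against 7.54% and 14% of all genes. None fell in either comparison. Without exercised mouse 2 the count of higher genes in exercised mice was 5. Isg15, a ubiquitin-like protein, was at 8.26, 10.9, 9.43 and 11.8 CPM in exercised mice, against 6.65, 4.01, 3.73 and 3.63 CPM in normal-diet mice (1.16 ± 0.23, edgeR adjusted p = 0.00323). Its promoter carries the core of the interferon-stimulated response element (GAAA, any 2 bases, GAAA, on either strand) in 3 overlapping copies starting at -78, -72 and -66, in capitals here (RefSeq, GRCm38.p6, minus strand, chr4:156200819-156201068).
Isg15: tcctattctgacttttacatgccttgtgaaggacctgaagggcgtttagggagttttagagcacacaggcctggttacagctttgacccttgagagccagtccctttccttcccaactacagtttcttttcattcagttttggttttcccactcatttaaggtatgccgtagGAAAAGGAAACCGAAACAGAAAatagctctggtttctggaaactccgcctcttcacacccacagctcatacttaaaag
That word was in 2.98% of all promoter windows and in those of 10 of the 16 interferon genes that had a window. Usp18, which removes ISG15 and dampens the response, rose by 1.63 ± 0.27 (adjusted p = 0.0009). Irf7, a factor that amplifies interferon genes, was at 42.4, 45.9, 31.8 and 42.1 CPM in exercised mice and 28.4, 23.0, 25.7 and 23.7 CPM in normal-diet mice (0.69 ± 0.13, adjusted p = 0.00249). The arms did not differ beyond their spread for Irf7 (0.11 ± 0.13, adjusted p = 0.89).

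MHC class II genes, which mark antigen-presenting cells, overlapped the normal diet in exercised mice for 7 of 8 members: none of 8 was called by edgeR or DESeq2, and 1 had an unadjusted p under 0.05, as had 4335 of all 14428 genes. In non-exercised mice 6 of 8 rose. H2-Aa was at 34.6, 59.0, 23.9 and 27.7 CPM in exercised mice, 103, 39.4, 162 and 103 CPM in non-exercised mice and 45.5, 33.7, 38.6 and 25.8 CPM in normal-diet mice. Cd74, the invariant chain, was at 77.8, 122, 59.5 and 60.2 CPM in exercised mice, 207, 87.1, 329 and 219 CPM in non-exercised mice and 101, 85.4, 85.4 and 58.5 CPM in normal-diet mice. For both genes non-exercised mouse 2 lay with the exercised mice. Non-exercised mice differed from the normal diet by 1.51 ± 0.44 for H2-Aa (adjusted p = 0.0194) and 1.35 ± 0.41 for Cd74 (adjusted p = 0.0225), calls lost without normal-diet mouse 4 (adjusted p = 0.0602 and 0.0693) or non-exercised mouse 3 (0.0742 and 0.0856). Over all alternatives these p ran from 0.00252 to 0.0742 for H2-Aa and from 0.00377 to 0.0856 for Cd74. Without non-exercised mouse 3, 2 of the 8 rose, and without normal-diet mouse 4, 3 rose. The direct differences between the arms, -1.49 ± 0.44 and -1.40 ± 0.41, did not pass in edgeR (adjusted p = 0.28 and 0.268), while 7 of the 8 genes had an unadjusted p under 0.05 there and DESeq2 called 4. In whole tissue, fewer cells of a type and less RNA per cell cannot be told apart.

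Some macrophage markers were higher in exercised mice. Of 14 markers of lipid-associated macrophages, 5 rose and none fell, against 11 higher in non-exercised mice. Of all genes, 7.54% rose in exercised and 14% in non-exercised mice. The higher count in exercised mice was 3 without exercised mouse 2 or 3 or normal-diet mouse 1, 8 in DESeq2 and 0 in limma-voom. DESeq2 called 1 lower, as did the fits at a minimum of 1 CPM, of the 12 non-tumour libraries and without exercised mouse 2. Gpnmb, a membrane glycoprotein of lipid-laden macrophages, was at 3.16, 11.4, 4.94 and 1.14 CPM in exercised mice, against 0.292, 0.0582, 0.229 and 0 CPM in normal-diet mice (5.07 ± 1.04, edgeR adjusted p = 0.00467; 4.33 without exercised mouse 2, and not called by limma-voom, where the adjusted p was 0.142, with 5.3e-07 to 0.142 over all alternatives). Lgals3, a galectin secreted by macrophages, was at 10.5, 18.9, 10.5 and 7.74 CPM in exercised mice, against 4.14, 3.55, 3.96 and 2.73 CPM in normal-diet mice (1.72 ± 0.37, adjusted p = 0.00584, and 0.054 in limma-voom, with 4.02e-05 to 0.054 over all alternatives). Fabp4, a fatty acid carrier of macrophages, capillaries and fat cells, rose by 1.31 ± 0.28 (adjusted p = 0.00625). The Kupffer cell list had 4 of 13 higher, a count of 0 to 2 in every fit that left out 1 mouse and of 11 in the fit of the 12 non-tumour libraries. Its summed level was 651 to 739 CPM in exercised mice, against 300 to 436 CPM in normal-diet mice. T and NK cell markers were called for none of 11 genes in edgeR (0 at an unadjusted p under 0.05, beside 4335 of all 14428 genes, and 0 in DESeq2).

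Stellate cell and matrix genes rose for 1 of 22 members, Timp1, an inhibitor of matrix proteases, against 8 in non-exercised mice. Of all genes, 7.54% rose in exercised and 14% in non-exercised mice. In exercised mice 4 members were higher in DESeq2 and without exercised mouse 1, and 3 without exercised mouse 4. Timp1 was at 0.243, 1.87, 0.403 and 0.162 CPM in exercised mice and 0.0583, 0.116, 0.0573 and 0 CPM in normal-diet mice. Its call (3.39 ± 1.01, edgeR adjusted p = 0.033) was lost without exercised mouse 2 (2.08, adjusted p = 0.196) or any of the normal-diet mice (3.04 to 3.89, adjusted p = 0.0528 to 0.0825). Its adjusted p ran from 0.00473 to 0.196 over the 16 alternatives that tested it. In the fit of the 2 groups alone Timp1 was under the filter on low counts, so it passed the filter of the main fit only through other libraries. Sinusoidal endothelial markers fell for 3 of 12 members, and for 5 in the fit of the 12 non-tumour libraries. Kdr, the receptor for vascular endothelial growth factor, was at 43.8, 24.4, 33.3 and 40.0 CPM in exercised mice, against 62.1, 67.2, 67.2 and 68.6 CPM in normal-diet mice (-0.91 ± 0.19, adjusted p = 0.00561). Bmp2, a growth factor that these cells make to set hepcidin, fell by 1.08 ± 0.26 (adjusted p = 0.0111). Erythroid markers rose for 5 of 6 members in both high-fat arms, and Hba-a1, a globin gene with a near-identical copy, was at 90.2, 64.0, 37.0 and 23.2 CPM in exercised mice, against 14.5, 12.5, 18.6 and 17.2 CPM in normal-diet mice (1.77 ± 0.38, adjusted p = 0.0058). Limma-voom called 2 erythroid genes in exercised mice, and in non-exercised mice the count was 2 without non-exercised mouse 3. The summed erythroid level was 195 to 582 CPM in exercised mice, against 164 to 236 CPM in normal-diet mice, and its part in the other differences was not tested.

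**Figure D5:**
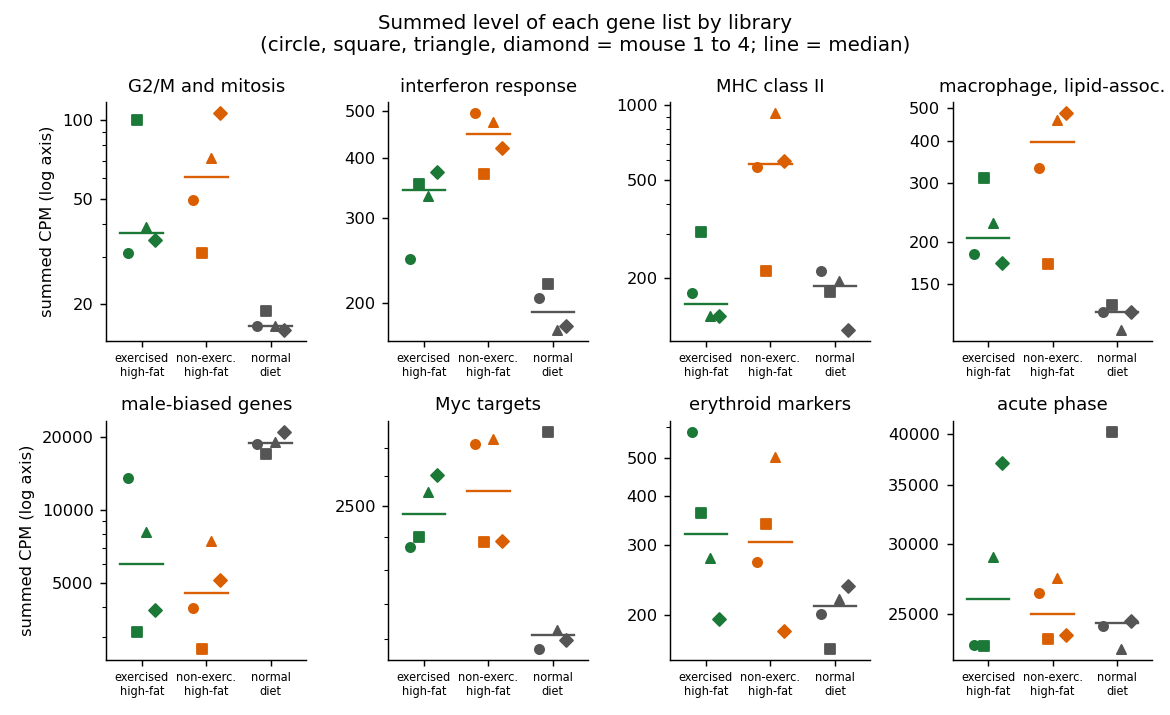
Each panel gives the summed CPM of 1 gene list on a log axis in the 4 libraries of the exercised high-fat, non-exercised high-fat and normal-diet groups, with a marker shape for each mouse number and a line at the median. MHC class II sums lie at 140 to 308 CPM in exercised mice, 213 to 930 CPM in non-exercised mice and 123 to 214 CPM in normal-diet mice, and exercised mouse 2 (square) is highest of its group for the mitosis and lipid-associated macrophage lists.

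Fewer genes of the differentiated hepatocyte were called against the normal diet in exercised than in non-exercised mice, as were fewer of all genes. Of all genes tested, 6.69% fell in exercised and 11.9% in non-exercised mice. Of 19 hepatocyte identity genes 1 fell in exercised (3 without exercised mouse 1, and 0 without exercised mouse 2, 3 or 4 or normal-diet mouse 1, 3 or 4) and 8 in non-exercised mice, and of 20 genes of the urea cycle and amino acid breakdown 1 and 10 fell. The urea cycle count in non-exercised mice was 5 without non-exercised mouse 1 or 3 and 6 without non-exercised mouse 4 or normal-diet mouse 1. In exercised mice the fits of the 12 non-tumour libraries and of the 2 groups alone called 3 of these genes lower and 1 higher. The median log2 difference between the arms was 0.34 and 0.40 for these lists, against -0.01 over all genes. None of their members was called directly between the arms by edgeR, 7 and 8 had an unadjusted p under 0.05 there, and DESeq2 called 1 and 2. The gene that fell in both lists was Cps1, the first enzyme of the urea cycle, at 3231, 2114, 1739 and 2756 CPM in exercised mice, 1232, 2152, 1428 and 1490 CPM in non-exercised mice and 4059, 3214, 3993 and 4314 CPM in normal-diet mice. Its fall of 0.66 ± 0.21 on the log2 scale (edgeR adjusted p = 0.0444) was lost without exercised mouse 2, 3 or 4 or normal-diet mouse 1, 3 or 4 (-0.72 to -0.52, adjusted p = 0.0672 to 0.139), with 0.0177 to 0.139 over all alternatives. In non-exercised mice it fell by 1.31 ± 0.22 (adjusted p = 0.000522). Bile acid genes were called for none of 18 in edgeR (3 at an unadjusted p under 0.05, 0 in DESeq2), though the fit of the 12 non-tumour libraries called 5 lower and 1 higher, and pericentral genes for none of 13 (0 at an unadjusted p under 0.05, 0 in DESeq2), with 2 lower and 1 higher in that fit. Both unadjusted counts stand beside 4335 of all 14428 genes.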

How the data were processed

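Frozen liver gave RNA (RNAiso Plus) for TruSeq Stranded mRNA libraries, per the labels' protocols. The deposited values are raw counts per gene from featureCounts 2.0.5 (strand setting 2, exons grouped by gene, GENCODE vM27 on GRCm39), per the file headers. Trim Galore 0.6.10 and STAR 2.7.11a were used, per the submitters' processing notes. The headers name no option for multi-mapping reads, so copies of near-identical genes are uncertain.

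Of 55359 identifiers 52083 had a symbol, and 135 that share one were named by identifier. Genes were kept by filterByExpr (minimum count 10, minimum total 15), libraries were scaled by TMM, and edgeR 4.0.16 (R 4.3.3, limma 3.58.1) fitted 5 group means to 20 libraries by robust quasi-likelihood (15 residual degrees of freedom). Calls are at a Benjamini-Hochberg adjusted p under 0.05 over all 14428 genes, two-sided, and the SE is the log2 fold change divided by the root of F. CPM uses TMM-scaled library sizes, except that summed list levels and genes under the filter use total counts unscaled. The procedure was tested on simulated counts. Libraries of 1 group differed by a chi-square per gene of at least 9.93, above the sampling noise of about 1, so no library was taken as a repeat. The labels do not name separate cultures or batches. The main p-values measure a spread estimated over all 20 libraries, tumour pieces included, and not only that between the mice compared. Tumour and non-tumour pieces that share a mouse number were fitted as independent libraries. The fit of the 12 non-tumour libraries called 2690 genes between exercised and normal-diet mice, beside 2053 in the main fit. Same-numbered mice of the exercised and normal-diet groups did not deviate together.

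The members and the 46 gene lists were chosen with earlier results of these data known, so no list is independent support. Named genes are the 10 clock and title genes, the 8 highest and 8 lowest fold changes at 1 CPM or more, up to 4 called members of each list by p, and the smallest p between the arms; the text gives a part of them. Promoters are RefSeq windows (GRCm38.p6). Counts of list genes with a window or a word leave out chromosome 18, while the shares over all windows and genes include it. Alternatives were RLE and upper-quartile scaling, DESeq2 1.42.0, limma-voom, other filters, fits of fewer libraries, a replicate block and leaving out each mouse.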

Additional observations from a re-analysis of the deposited data

Results flagged for a closer look

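Usp2 and Mbd1 were called directly between exercised and non-exercised high-fat liver, with log2 differences of 2.96 and 1.27 in edgeR's test.

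Among the 4 libraries of a group, the following values lay far from the other 3, by a gap to the nearest that exceeds Dixon's critical share of the group's range. In exercised mice these were H19 at 64.1 CPM, Ube2c at 2.51 CPM, Mki67 at 13.9 CPM and Timp1 at 1.87 CPM, all in mouse 2, and Selenbp2 at 258 CPM in mouse 1. In non-exercised high-fat mice they were Cry1 at 21.0 CPM and Lgals3 at 7.39 CPM, both in mouse 2. In normal-diet mice they were Cyp2b9 at 6.71 CPM, Usp18 at 5.37 CPM and Isg15 at 6.65 CPM in mouse 1, Tm7sf2 at 70.3 CPM and Nat8 at 21.3 CPM in mouse 2, and Arntl at 45.0 CPM and Elovl5 at 350 CPM in mouse 4. Chance flags about 1 in 20 groups, and 14 of 207 gene and group pairs were past the limit.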

How the results depend on the processing

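With exercised mice against the normal diet, 1157 to 2157 genes were called when 1 mouse was left out (lowest without exercised mouse 2) and 1302 with no filter on low counts, with up to 2690 in the fit of the 12 non-tumour libraries. Calls shared with the non-exercised comparison numbered 999 to 1865 when 1 mouse was left out and 1061 with no filter. Between the arms, 0 to 72 genes were called when 1 mouse was left out (72 without exercised mouse 3), 107 by DESeq2, 1 with no filter on low counts, and 0 by limma-voom, in the fit of the 12 libraries and in that of the 2 arms alone. Of the genes called in non-exercised mice, the count that differed between the arms was 1 in the main analysis, 0 to 48 when 1 mouse was left out, 79 by DESeq2, and 0 by limma-voom, with no filter, and in the fits of the 12 libraries and of the groups compared. The cause of these moves was not tested, apart from the fewer samples or the other genes tested.

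Genes that changed sign did so in the comparison of exercised mice with the normal diet, where the main fit called none of them. Leaving out 1 mouse gave log2 differences of -0.32 to 0.18 for H2-Aa, -0.32 to 0.08 for Cd74, -0.31 to 0.14 for Por, -0.09 to 0.36 for Il1r1 and -0.46 to 0.07 for Pim3, and limma-voom gave -0.04 for H2-Aa. Of the 63 genes of the text called in exercised mice, 52 were called in every alternative.

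Mouse numbers did not pair the groups: same-numbered exercised and normal-diet mice had correlations of deviations of 0.043, -0.056, 0.056 and -0.023. With the mouse number as a replicate block, 2144 genes were called against the normal diet (1101 higher, 1043 lower), 1793 calls were shared with the non-exercised comparison, and 1 gene was called between the arms.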
